A study of Sus scrofa with 70 samples.

Results

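Of the 110996 isoforms that long-read sequencing found in 5 reproductive glands of the boar, 7518 (6.77%) had at least 1 full-length read in all 10 libraries. They are described here as the isoforms shared by all libraries. They held 2253167 of the 3468110 reads (65.0%) and came from 5895 of the 22298 genes (26.4%). The isoforms were selected on their reads in each library, so read numbers, detection and the read shares of the glands in Iso-seq are given as a description and were not tested.

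Testis, epididymis, prostate gland (PG), bulbourethral gland (BG) and vesicular gland (VG) were taken from adult boars aged 12 months, of the Banna mini-pig inbred line (BMI) and of Diannan small-ear pigs (DSE), from which BMI was bred. No group was treated. PacBio Iso-seq, which reads whole cDNA molecules, had 1 library for each breed and gland, and Illumina RNA-seq had 3 libraries for each. The sources used here do not say how many boars gave the samples, so a p-value from RNA-seq measures the spread between these samples.

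A gene is spliced into several isoforms, which can differ in their start, their end or the exons in between. An exon that some isoforms of a gene contain and others skip is called a cassette exon, and a cassette whose length is a multiple of 3 adds or removes amino acids without shifting the reading frame. Testis is known for its many isoforms, epididymis for proteins that coat and mature the sperm, and the accessory glands for secretion of the seminal plasma.

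Among the shared isoforms, 373 pairs or groups of isoforms of one gene differed by a single internal exon. The sequences of 7 such exons from 6 genes are shown because their inclusion differed most between glands among events with 20 or more reads in every library and they lie wholly in coding sequence of the RefSeq annotation. They were chosen after their values were seen. Positions are on Sscrofa11.1, each sequence is read 5′ to 3′ on the strand of the gene, capitals mark the exon, and the lower-case ends are the 10 intronic bases on either side.
UAP1 exon of 51 bp, chr4:87966357-87966407, minus strand: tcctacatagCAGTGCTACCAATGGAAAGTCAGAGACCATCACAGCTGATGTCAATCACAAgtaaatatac
ESYT2 exon of 63 bp, chr18:625803-625865, plus strand: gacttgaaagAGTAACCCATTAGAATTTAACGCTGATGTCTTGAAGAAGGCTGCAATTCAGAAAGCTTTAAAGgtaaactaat
SORT1 exon of 99 bp, chr4:110785426-110785524, plus strand: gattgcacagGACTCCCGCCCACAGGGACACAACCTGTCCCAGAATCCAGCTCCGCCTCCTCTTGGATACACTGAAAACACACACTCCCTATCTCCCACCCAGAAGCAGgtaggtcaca
APP exon of 57 bp, chr13:189541274-189541330, minus strand: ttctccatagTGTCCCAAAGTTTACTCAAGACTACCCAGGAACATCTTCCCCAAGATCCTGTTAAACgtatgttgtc
APP exon of 54 bp, chr13:189457551-189457604, minus strand: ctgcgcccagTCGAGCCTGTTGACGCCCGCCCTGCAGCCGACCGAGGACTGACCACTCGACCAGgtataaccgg
RANBP3 exon of 189 bp, chr2:73092205-73092393, plus strand: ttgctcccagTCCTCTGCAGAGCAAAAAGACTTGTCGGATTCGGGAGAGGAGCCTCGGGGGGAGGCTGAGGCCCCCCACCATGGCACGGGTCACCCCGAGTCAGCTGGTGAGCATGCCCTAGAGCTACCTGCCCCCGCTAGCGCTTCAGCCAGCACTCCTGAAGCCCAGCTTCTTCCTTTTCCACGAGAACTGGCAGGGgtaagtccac
RAI14 exon of 87 bp, chr16:20421427-20421513, plus strand: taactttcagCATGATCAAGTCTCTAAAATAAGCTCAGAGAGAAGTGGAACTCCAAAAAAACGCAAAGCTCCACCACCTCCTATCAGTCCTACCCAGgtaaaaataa
All 7 are preceded by ag and followed by gt, the usual letters at intron ends, and all 7 lengths are multiples of 3. How far each exon was included in each gland is given further on.

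Of all isoforms, 22113 were found in 1 library, 40907 in 2, 3092 in 9 and 7518 in all 10. The shared isoforms had a median of 140 reads (13 to 14108), and those missing from a single library had a median of 39 (9 to 6839). In 2321 of the shared isoforms (30.9%) at least 1 library held a single read, so these were the members nearest to the limit. A minimum of 2 reads in every library left 5197, a minimum of 5 left 2896, a minimum of 20 left 645 and a minimum of 100 left 43. Reads per library were lowest in DSE epididymis, at 231413, and highest in BMI epididymis, at 458697. Testis had the lowest share of its reads in the shared isoforms, 51% to 51.8%, and the other 8 libraries had 64.1% to 77.6%.

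**Figure D1:**
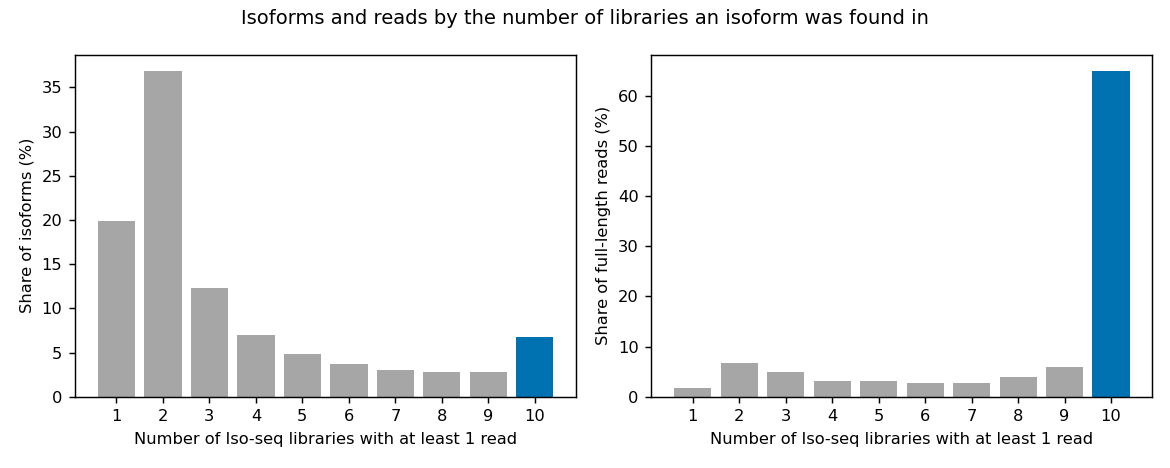
Share of isoforms (left) and share of full-length reads (right), both in percent, by the number of Iso-seq libraries, from 1 to 10, in which an isoform had a read. The isoforms found in all 10 libraries, in blue, are 6.77% of isoforms and hold 65.0% of reads.

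By the SQANTI3 categories, 2430 of the shared isoforms (32.3%) were NIC (known splice sites in a combination that the reference does not list) and 1905 (25.3%) were full splice matches (FSM) to a reference transcript. A further 1655 (22.0%) were NNC (with a splice site that the reference does not list), and 1327 (17.7%) were incomplete splice matches (ISM), which match part of a reference transcript. Fusion isoforms across neighbouring genes numbered 151, genic isoforms 25, intergenic 18 and antisense 7. In 2872 of the 5895 genes no shared isoform was FSM or ISM. The leading shared isoform of a gene was NIC in 1847 genes, FSM in 1734, NNC in 1098, ISM in 1062 and Fusion in 110.

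The shared isoforms had a median length of 3632 bp and 10 exons, against 3296 bp and 9 exons in the other 103478. The known categories, FSM and ISM together, made up 43.0% of the shared and 16.6% of the other isoforms, a difference of 26.3 points (95% interval 25.2 to 27.5). NNC made up 22.0% against 52.3%. Isoforms are not independent samples, and the intervals cover counting error only. Read number moves with these shares: averaged over 3 classes of total reads, the difference for the known categories was 6.44 points and that for NNC was −14.4 points. At over 200 reads the known categories were 44.3% against 44.0%, and FSM alone was reversed, at 23.9% against 31.1%, while NNC was still lower, at 17.8% against 31.1%. Template switching, a sign of an artefact of reverse transcription, was predicted for 3.78% against 6.57%. Within the classes it was 3.95% against 4.17% at 13 to 50 reads, 3.65% against 3.77% at 51 to 200 and 3.87% against 3.23% at over 200, with overlapping intervals in each.

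A 5′ end within a reference transcription start was annotated for 86.7% of shared and 68.6% of other isoforms, and within classes of total reads the mean difference was 10.7 points. SQANTI3 names this column for CAGE peaks, but by the study's description the starts came from the Ensembl annotation, so it is no independent evidence of a start and shares its source with the categories. All splice sites were canonical in 97.2% and 85.5%. Nonsense-mediated decay, the removal of transcripts with an early stop codon, was predicted for 8.07% and 20.9%. An open reading frame was predicted in 98.6% and 90.2%. Averaged over the classes of total reads these differences were 1.97, −3.28 and 0.795 points, against 11.6, −12.9 and 8.34 without classes. The polyadenylation hexamer AATAAA was the motif listed for 56.9% of the shared and 46.2% of the other isoforms, and no motif was listed for 14.7% and 24.2%. Within classes of total reads, a polyA motif was listed for 82.3% of the shared and 80.6% of the other isoforms at 13 to 50 reads, 84.3% and 85.8% at 51 to 200 and 87.6% and 89.2% at over 200, again with overlapping intervals.

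The 8 genes with 7 or more shared isoforms were HNRNPK, SRRM1, DCAF8, CCNL1, DDX5, MATR3, SEC31A and RBM39. HNRNPK, an hnRNP that binds pre-mRNA, had 13 of its 73 isoforms in all libraries. The SR-related splicing coactivator SRRM1 had 9 of 38, and DCAF8, a substrate receptor of a ubiquitin ligase, had 9 of 44. In all, 1141 genes had 2 or more shared isoforms and 38 had 5 or more. The leading HNRNPK isoform, PB.2500.11, had 107 and 101 reads in testis of BMI and DSE, 183 and 70 in epididymis, 102 and 138 in VG, 81 and 220 in PG and 224 and 90 in BG. The 13 HNRNPK isoforms had from 38 to 1316 reads each. In RNA-seq, described further on, 5 of the 8 tested DCAF8 isoforms, which come from one gene and are not independent, were called higher in testis, beside 20.2% of all shared isoforms tested and 28.4% of all transcripts, among them PB.13505.35 by 1.75 on the log2 scale (SE 0.25, adjusted p = 1.77e-06 by limma).

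The library labelled BMI prostate gland in Iso-seq stood apart from its label. Over the 7518 shared isoforms, the library labelled BMI prostate gland correlated with BMI VG at r = 0.844 and DSE VG at 0.821, and with DSE PG at 0.731 (log2 share of reads). Genes of accessory gland secretion held 3.39% of its reads, near the 2.76% and 4.25% of the VG libraries, against 0.0366% in DSE PG. In RNA-seq, the library labelled BMI prostate gland replicate 2 had 438 TPM (transcripts per 1000000) of the FN1 isoform that marked VG here, and the other 5 PG libraries had 0 to 3.48. Spermatid markers held 0.965% and 1.45% of reads in testis and at most 0.0174% elsewhere, and epididymal markers 3.49% and 1.40% in epididymis. BMI BG held skeletal muscle RNA, with 1998 reads of ACTA1, 1267 of CKM and 88 of TNNT3 (0.864% of its reads for that marker list), against 0 in DSE BG and at most 8 in the others. Both epididymis libraries were also closer to a library of another gland, BMI to BMI VG (r = 0.753) and DSE to BMI BG (r = 0.633), than to each other (0.600). The main PG counts are given with and without the libraries that stood apart, and the part of the likeness and of the muscle RNA in the PG and BG results was not tested.

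The share of library reads of a shared isoform differed between the gland with the highest mean and that with the lowest by a median of 3.74-fold. The fold was under 2 for 918 isoforms (12.2%), over 10 for 985 (13.1%) and over 100 for 26. Both libraries of a gland lay above the 8 others for 707 isoforms in testis (9.40%, against 13.5% of all isoforms), 280 in epididymis (3.72%, against 3.52%) and 251 in VG (3.34%, against 2.04%). They did so for 77 in PG (1.02%, against 1.38%) and 339 in BG (4.51%, against 2.82%). Both come from the reads that chose the isoforms, and nothing is read from them. Without the library labelled BMI prostate gland the numbers were 729, 323, 427 and 385 in testis, epididymis, VG and BG, and 1089 in PG, where only 1 library was then left.

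**Figure D2:**
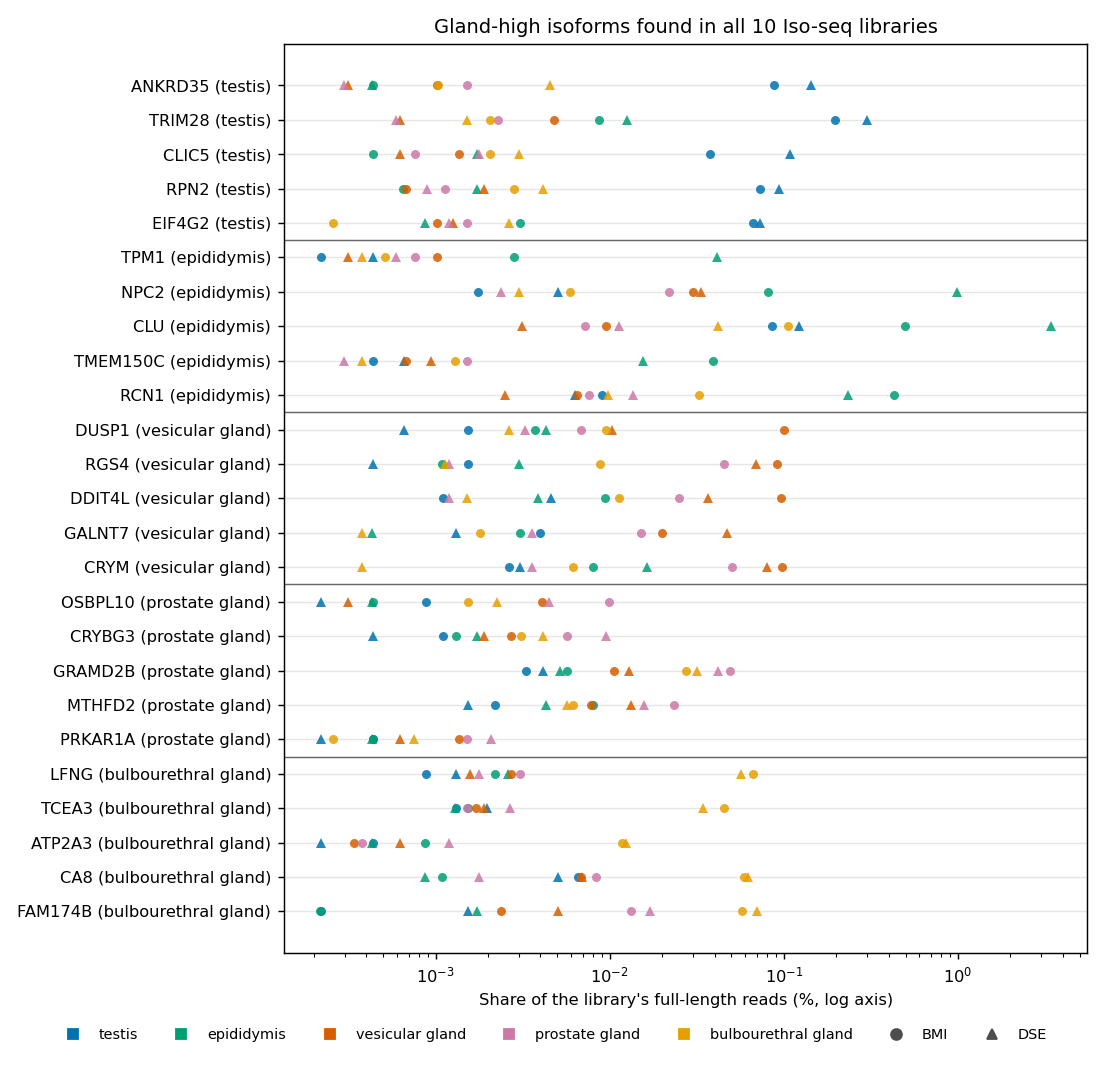
Share of library reads in percent, on a log axis, of the 25 isoforms named for a gland, with 1 row per isoform and 1 point per Iso-seq library (colour for the gland, circle for BMI, triangle for DSE). Both points of the named gland lie to the right of the other 8, and in 4 of the 5 VG rows BMI prostate gland (pink circle) comes next after VG.

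By the ratio of shares among isoforms high in both libraries of a gland, with all 10 libraries, testis had the largest differences. ANKRD35 PB.13714.10, an FSM of an ankyrin repeat gene at chr4:99442901-99460868, had 400 and 652 reads in testis of BMI and DSE and 1 to 12 reads in the other 8 libraries. TRIM28 PB.16068.207, an NNC isoform of the corepressor of KRAB zinc finger proteins, had 896 and 1371 reads in testis and 2 to 40 elsewhere. RPN2 PB.8953.55, an NIC isoform of a subunit of the oligosaccharyltransferase, had 331 and 430 in testis and 2 to 11 elsewhere. The leading isoform of RPN2, PB.8953.54, was not higher in testis and had 390 and 365 reads in testis and 372 to 661 elsewhere. CLIC5 PB.17566.2 (ISM) and EIF4G2 PB.10298.68 (NNC) completed the 5 named for testis, with 172 and 497 reads and 304 and 336 reads there.

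In epididymis the named isoforms included secreted proteins. CLU PB.5729.17 (NNC, clusterin, a secreted chaperone that binds sperm) had 2286 and 7905 reads in epididymis of BMI and DSE, 391 and 556 in testis, 413 and 111 in BG and 10 to 38 in VG and PG. NPC2 PB.18201.127 (FSM, a sterol carrier abundant in epididymal fluid) had 374 and 2275 in epididymis and 8 to 106 elsewhere. RCN1 PB.10187.111 (FSM, a calcium-binding protein of the endoplasmic reticulum) had 1978 and 539 there and 8 to 127 elsewhere. The breeds were far apart for CLU and NPC2, with DSE the higher, and for RCN1 BMI was the higher. The epididymis libraries of BMI and DSE also differed in epithelial markers, with 5770 and 32 reads of ADAM28, 9155 and 554 of ADAM7 and 448 and 1 of RNASE10, and in smooth muscle markers, at 0.357% and 1.22% of reads. The part of these in the named isoforms was not tested. TPM1 PB.766.20 and TMEM150C PB.19301.8 were named too, the latter as ISM.

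Among VG isoforms, RGS4 PB.13441.2 (a regulator of G protein signalling) had 268 and 220 reads in VG, 120 in BMI PG and 2 to 34 in the other 7 libraries. CRYM PB.11821.16 (a thyroid hormone-binding crystallin) had 285 and 255 in VG, 132 in BMI PG and 1 to 38 elsewhere. FN1 PB.7849.3, an NIC isoform of fibronectin named for its large difference in read share, had 3450 and 4711 reads in VG, 5880 in BMI PG, 4 in DSE PG and 2 to 26 elsewhere. Its fold of 1513 between glands was the largest of the shared isoforms. DUSP1, DDIT4L and GALNT7 isoforms completed the 5 for VG.

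The PG isoforms had small read numbers. GRAMD2B PB.11228.3 had 130 and 140 reads in PG, 106 and 84 in BG and 12 to 41 elsewhere. MTHFD2 PB.12207.60 had 62 and 53 in PG and 7 to 42 elsewhere. The others, OSBPL10, CRYBG3 and PRKAR1A, had 26 to 101 reads over all libraries. Without the library labelled BMI prostate gland, ANPEP PB.17739.18 (aminopeptidase N) led, with 357 reads in DSE PG, 8 in BMI PG and 6 to 62 elsewhere.

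In BG, LFNG PB.11510.5 (a glycosyltransferase that modifies Notch) had 258 and 151 reads, and 4 to 10 in the other 8 libraries. TCEA3 PB.16318.136 (a transcription elongation factor) had 175 and 91, and 3 to 9 elsewhere. CA8 PB.13329.1 (a carbonic anhydrase-related protein) had 228 and 165, and 2 to 30 elsewhere. Both BG libraries lay well above the other 8 for each of them. FAM174B PB.18099.7 had 222 and 185 in BG and 57 in DSE PG, and ATP2A3 PB.3837.6 had 46 and 33 in BG and 1 to 4 elsewhere.

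At the other end, 645 isoforms had at least 20 reads in every library, and the median coefficient of variation of their share over the 10 libraries was 45.9%. CCDC47 PB.3533.132, an ISM of a translocon-associated protein, was the steadiest at 12.5%. It had 76 and 89 reads in testis, 106 and 47 in epididymis, 66 and 74 in VG, 51 and 78 in PG and 96 and 67 in BG. The splicing factors SF3A1 and SF3B2, the histone chaperone subunit SSRP1, the proteasome-associated deubiquitinase USP14 and TMEM254 were the next.

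RNA-seq was used to test the gland differences, since its TPM values did not choose the isoforms. A TPM value was given for 6007 of the 7518, under the matching reference transcript for FSM and under the isoform itself otherwise. The 1327 ISM had none, so no ISM was tested. Of the 6007, 5530 had at least 1 TPM in at least 3 libraries and were tested among 64661 transcripts. TPM was above 0 in all 30 libraries for 3209 of the 6007 (53.4%), against 13.3% of all transcripts. The shared isoforms held 8.82% to 25.6% of the TPM of a library.

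Against the mean of the other 4 glands, at an adjusted p below 0.05 by limma and a log2 difference of 1 or more, 1116 isoforms were higher in testis (20.2% of those tested, against 28.4% of all transcripts) and 740 lower (13.4%, against 9.54%). In epididymis 584 were higher (10.6%, against 9.65%) and 113 lower (2.04%, against 4.4%). In VG 74 were higher (1.34%, against 2.49%) and 1209 lower (21.9%, against 13.4%). In PG 158 were higher (2.86%, against 2.61%) and 187 lower (3.38%, against 6.57%), and in BG 463 were higher (8.37%, against 6.37%) and 169 lower (3.06%, against 6.48%). After division by size factors (median of ratios over transcripts), testis had 1191 higher and 699 lower and PG 186 and 170, while epididymis had 230 and 317, VG 282 and 267, and BG 270 and 276. The median log2 difference of all transcripts in VG was −0.40 with TPM as deposited and −0.20 with size factors, and that of the shared isoforms was −0.60 and −0.10. In VG the 10 most abundant transcripts of a library held 47.3% to 64.7% of TPM, and in epididymis 9.24% to 22.0%. The PG counts moved to 100 higher and 307 lower without replicate 1 to 95 and 93 without replicate 3 and to 190 and 244 without BMI PG replicate 2, while BG had 97 lower without replicate 2 and VG had 48 higher without replicate 3.

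Isoforms that were high in a gland in Iso-seq were followed in RNA-seq. For testis 430 of the 540 tested (79.6%) were called higher and 12 lower, beside the 20.2% of all shared isoforms. For epididymis 103 of 213 (48.4%) were higher, or 59 (27.7%) with size factors, beside 10.6% and 4.16%. For BG 116 of 248 (46.8%) were higher, or 90 (36.3%) with size factors, beside 8.37% and 4.88%. For VG 18 of 174 (10.3%) were, or 44 (25.3%) with size factors, beside 1.34% and 5.10%. For PG 2 of 53 (3.77%) were, near the 2.86% of all shared isoforms, or 1 of 53 (1.89%) without BMI PG replicate 2 of RNA-seq. Without the Iso-seq library labelled BMI prostate gland the PG set had 778 tested isoforms, of which 57 (7.33%) were higher, and the VG set had 308 tested isoforms, of which 46 (14.9%) were higher, or 111 (36.0%) with size factors. By the fold between glands in Iso-seq, 257 of 661 isoforms (38.9%) with a fold under 2 and 573 of 721 (79.5%) with a fold over 10 were called in at least 1 gland, against 52.1% of all shared isoforms tested. Whether both kinds of library came from the same boars is not given in the sources used here.

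**Figure D3:**
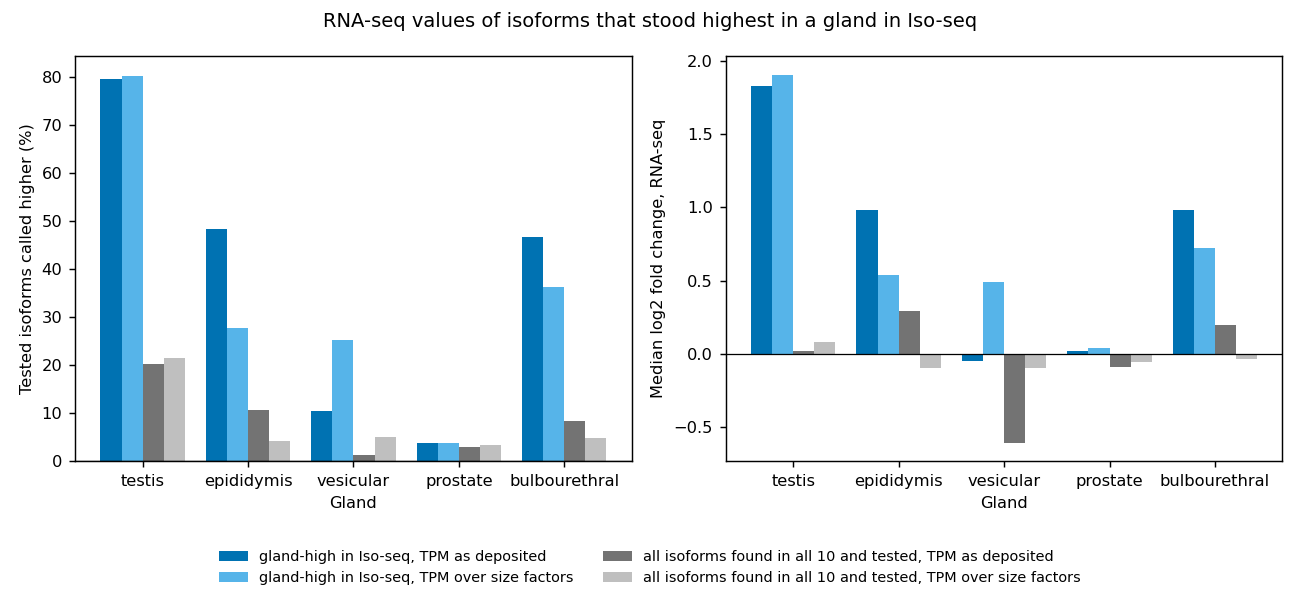
RNA-seq values by gland of the isoforms high in that gland in Iso-seq (blue) and of all shared isoforms tested (grey), as percent called higher (left) and median log2 fold change (right), with TPM as deposited (dark) and over size factors (light). Of the testis set 79.6% were called higher, and the median of the VG set was −0.05 as deposited and 0.49 with size factors.

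In testis, ANKRD35 had a lowest, median and highest TPM of 363, 1255 and 1452, against 0.285, 2.23 and 9.33 in the 24 other libraries, with no overlap. Its log2 fold change on the log2(TPM + 1) scale was 8.18 (SE 0.28, adjusted p = 2.47e-18 by limma). RPN2 PB.8953.55 had 26.4, 96.4 and 118 TPM in testis and 0, 0.876 and 6.25 elsewhere, and was higher by 5.31 (SE 0.31, adjusted p = 1.64e-13 by limma). TRIM28 PB.16068.207 had 116, 285 and 367 TPM in testis and at most 101 elsewhere, and was higher by 2.80 (SE 0.23). All 6 testis libraries lay above all 24 others for these 3 isoforms. A2M PB.14738.51, an isoform of the protease inhibitor alpha-2-macroglobulin named for its large difference in read share, had a median of 313 TPM in testis and at most 45.7 elsewhere (log2 fold change 5.74, SE 0.41). EIF4G2 PB.10298.68 did not pass the filter on TPM despite its 304 and 336 testis reads, and CLIC5, an ISM, had no TPM.

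In epididymis, RCN1 had a lowest, median and highest of 371, 634 and 1248 TPM, and at most 96.5 elsewhere (log2 fold change 4.22, SE 0.30, adjusted p = 1.24e-10 by limma). NPC2 had 299, 8063 and 17971 TPM in epididymis and at most 777 elsewhere, so 5 of its 6 epididymis libraries lay above all others (log2 fold change 4.94, SE 0.54). TPM1 PB.766.20 had 58.5, 111 and 121 TPM and at most 19.3 elsewhere (5.12, SE 0.54). CLU had 36.6, 141 and 1177 TPM in epididymis and 0, 42.1 and 417 elsewhere, so the groups overlapped. CLU was higher by 2.51 (SE 0.53, adjusted p = 6.09e-04 by limma), and the call was lost without replicate 1, at 1.40. SAT1, a polyamine acetyltransferase with 3803 and 1698 epididymis reads, had a log2 fold change of 0.50 (SE 0.33, adjusted p = 0.237 by limma) and was not called.

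In VG, FN1 had 638 TPM in the median library, but 0 in DSE replicate 1. The other 5 VG libraries had 247 to 957, and among the other glands only BMI PG replicate 2 came near, with 438. FN1 was higher in VG by 6.24 (SE 1.17, adjusted p = 1.45e-04 by limma), and by 6.61 without BMI PG replicate 2. CRYM had 297, 398 and 608 TPM in VG and at most 338 elsewhere (3.03, SE 0.36), and RGS4 17.6, 50.2 and 136 against at most 73.9 (3.98, SE 0.58). DUSP1, an early-response phosphatase, was higher by 2.47 (SE 0.61), a call lost without replicate 3, and GALNT7 by 2.07 (SE 0.41). PRPS2, a nucleotide synthesis enzyme named without the library labelled BMI prostate gland, had 282, 340 and 460 TPM in VG and at most 240 elsewhere (3.54, SE 0.41).

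In PG, GRAMD2B was higher by 1.13 (SE 0.29, adjusted p = 0.00499 by limma), with 20, 36.7 and 70.1 TPM in PG and 2.97, 16.4 and 63 elsewhere. The overlap was wide, and the call was lost without replicate 1 (0.74) and without replicate 3 (1.22, adjusted p = 0.0615 by limma), and held without BMI PG replicate 2 (1.21). OSBPL10, CRYBG3 and MTHFD2 were not called. ANPEP had 20.2, 41.5 and 62.8 TPM in PG and at most 12.5 elsewhere, without overlap (3.80, SE 0.38, adjusted p = 8.50e-08 by limma). The 3 BMI libraries were included in this range, although Iso-seq found only 8 ANPEP reads in BMI PG.

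In BG, LFNG had 143, 184 and 275 TPM and at most 27.5 elsewhere (log2 fold change 4.54, SE 0.27, adjusted p = 5.65e-12 by limma). TCEA3 had 43.1, 53.9 and 65.9 TPM against at most 12.8 (3.74, SE 0.36), and CA8 7.44, 25.2 and 42.4 against at most 7.13 (2.95, SE 0.35). All 6 BG libraries lay above the 24 others for these 3. FAM174B was higher by 3.82 (SE 0.33) and the calcium pump ATP2A3 by 3.81 (SE 0.51), with some overlap. GPD1L, with 3933 reads in DSE PG, had a log2 fold change of 0.13 (SE 0.45) in PG.

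Steady read shares went with small RNA-seq changes for some but not all. SF3A1 had 51.7, 74.7 and 82.0 TPM in testis and 12.9, 39.2 and 65.2 elsewhere, a log2 fold change of 0.91 (SE 0.21) that did not reach 1. USP14 was called higher in epididymis by 1.59 (SE 0.18), with 10.3, 20 and 21.7 TPM there and at most 22.9 elsewhere. SSRP1 in VG had −0.39 (SE 0.15) with TPM as deposited and 0.35 with size factors.

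Gene lists of basic cell functions were looked up among the shared isoforms. Of the proteasome, the protease that degrades ubiquitinated proteins, 27 of 32 listed genes had a shared isoform. Of 19 tested isoforms 14 were higher in testis, among them PSMA3, PSMC1 and PSMD1, and 1, PSMD14, was lower, with a median log2 fold change of 1.44 beside 0.06 over all transcripts. Of all shared isoforms tested 20.2% were higher and 13.4% lower in testis. The count of higher proteasome isoforms in testis was 14 or 15 in every alternative tried. PSMD2 had 638 and 585 reads in testis and 48 to 179 elsewhere, and its TPM of 248 to 348 in testis lay above the 18.4 to 88.6 of the other libraries (2.71, SE 0.16). In VG 16 of the 19 were lower with TPM as deposited and 0 with size factors, beside 21.9% and 4.83% of all shared isoforms. In Iso-seq the proteasome isoforms had a median fold of 2.45 between glands, beside 3.74 for all shared isoforms.

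Cytosolic chaperones also moved in testis, where 12 of 21 tested isoforms were higher and 1 was lower (median 1.12). HSP90AA1, a stress-inducible form of HSP90, had 891 and 966 reads in testis and 67 to 266 elsewhere. Its TPM of 677 to 1050 in testis lay above the 46.4 to 464 of the others (2.19, SE 0.37). Beside these counts stand the 20.2% higher and 13.4% lower among all shared isoforms tested in testis. Of translation factors, 12 of 33 isoforms were higher in testis and 2 lower, and isoforms of EIF4A2 and EIF4G1 were found on both sides. Of respiratory chain subunits 4 of 19 were higher and 2 lower in testis, a share of higher calls near that of all shared isoforms.

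Lists of the secretory pathway were counted in the same way. Of chaperones of the endoplasmic reticulum 9 of 25 isoforms were higher in epididymis, those of CALR, CRELD2, ERP29, ERP44, HSP90B1, HSPA5, MANF, PDIA3 and PDIA6, and 0 with size factors, beside 10.6% and 4.16% of all shared isoforms. HSPA5, which is BiP, had 9392 reads, from 603 to 1521 per library. Of COPI and COPII coats and cargo receptors, which carry proteins between the endoplasmic reticulum and the Golgi, 7 of 32 were higher in BG and 1 lower (5 and 1 with size factors). Of all shared isoforms tested 8.37% were higher and 3.06% lower in BG. Of the translocon list 7 of 30 were higher and 5 lower in testis, a share of higher calls near the 20.2% of all shared isoforms. In VG 7 were lower (1 higher and 3 lower with size factors), near the 21.9%, and in BG 5 were higher and 2 lower, with 0 lower without replicate 2 and 1 without replicate 3 or BMI PG replicate 2.

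Extracellular matrix isoforms varied most in Iso-seq, with a median fold of 13.1 over 23 isoforms. In RNA-seq 9 of 18 were lower and 1 was higher in testis, beside 13.4% lower and 20.2% higher of all shared isoforms, and 7 were higher in epididymis, beside 10.6%. The epididymis count was 5 higher and 1 lower with size factors, and 4 higher without replicate 1 or 2. Of actin and tubulin isoforms 8 of 20 were higher and 2 lower in epididymis (4 and 2 with size factors, 5 and 2 without replicate 3), beside 10.6% and 2.04% of all shared isoforms, and the higher ones included isoforms of TPM1, MYL6 and MYL12B. The 2 lower ones were isoforms of TPM1 and TUBA4A, so TPM1 was found on both sides. The 6 smooth muscle markers, all detected, held 0.357% and 1.22% of Iso-seq reads in epididymis of BMI and DSE, 0.0166% to 0.443% in the accessory glands and at most 0.0105% in testis. Their part in these counts and in those of the matrix list was not tested. Splicing proteins of the hnRNP and SR families had a median fold of 2.91 in Iso-seq, and 5 of 52 were higher and 5 lower in testis, beside 20.2% and 13.4% of all shared isoforms. These counts were 9 and 7 with a pseudocount of 0.1, 8 and 5 without replicate 2 and 5 and 3 without replicate 1. Of ubiquitin and 14-3-3 isoforms 5 were tested, 1 higher and 1 lower in testis. In whole glands fewer cells of a type and less RNA per cell cannot be told apart.

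Isoforms of one gene also took different shares of its reads. Of 358 genes with at least 20 reads of shared isoforms in every library, the leading isoform changed between glands in 80. In 31 of them testis had a leading isoform that no other gland had, and in 25 of these the other 4 glands agreed on one. RNA-seq usage, the percent of the TPM of a gene, could be tested for 4129 shared isoforms of 24640 transcripts. With an adjusted p below 0.05 by limma and a difference of at least 10 points, usage was higher in testis for 539 (13.1%, against 13.6% of all) and lower for 818 (19.8%, against 13.5%). The other glands had 136 higher and 143 lower in epididymis (against 2.7% and 3.09% of all), 175 and 165 in VG (3.49% and 3.16%), 174 and 61 in PG (2.35% and 2.24%), and 182 and 83 in BG (2.98% and 2.77%). Without replicate 3 the testis counts were 371 and 586, and those of the other glands were between 8 and 57. Without BMI PG replicate 2 the PG counts were 171 and 73.

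PAIP1, a partner of the poly(A)-binding protein, showed such a switch. PB.8263.1 had 98 and 93 reads in testis and 2 to 10 elsewhere, and PB.8263.2 had 22 and 19 in testis and 11 to 70 elsewhere. In RNA-seq PB.8263.1 took 22.5%, 46.9% and 60.4% of the TPM of the gene in testis (lowest, median, highest) and at most 5.92% elsewhere, a difference of 43.7 points (SE 2.36, adjusted p = 4.58e-13 by limma). PB.8263.2 differed by −38.3 points (SE 2.72). RPN2 PB.8953.55 took 13.7%, 45.6% and 47.2% in testis and at most 2.77% elsewhere (38.8 points, SE 2.55). The leading RPN2 isoform by reads, PB.8953.54, is an ISM without TPM, so the percent of RPN2 is over its other transcripts. IPO4 PB.17999.40, of an importin, rose by 37.4 points in testis (SE 6.56), and HDLBP PB.8071.1, of vigilin, by 19 (SE 1.5). DSE testis replicate 2 held the lowest testis usage of PAIP1 PB.8263.1 (22.5%), RPN2 PB.8953.55 (13.7%) and HDLBP PB.8071.1 (12.9%), but not that of IPO4 PB.17999.40. RPN2 was added to these genes after its values were seen.

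Cassette exons could be read from the 6191 shared isoforms with an exon structure. The 373 events lay in 319 genes and held 369 distinct exons. Their length was a multiple of 3 for 210 (56.9%), against 38.5% of the 50327 other internal exons of the shared isoforms. The median length was 93 bp (12 to 2209), against 121 bp. In 118 events at least 20 reads covered both forms in every library. The largest difference between gland means was over 10 points in 66 and over 20 points in 33. In 27 of the 118 (22.9%) both testis libraries lay beyond the 8 others, lower in 13 and higher in 14.

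UAP1, the enzyme that makes UDP-N-acetylglucosamine, is known in human to have forms that differ by a short insert, and the 51-bp exon separated 2 shared isoforms. The long form PB.13451.2, predicted at 522 amino acids, had 14 and 16 reads in testis, 113 and 34 in epididymis, 102 and 118 in VG, 99 and 361 in PG and 348 and 169 in BG. The short form PB.13451.1, at 505, had 208 and 172 in testis and 7 to 51 elsewhere. Inclusion was 6.31% and 8.51% in testis and 76.1% to 95.5% in the other 8 libraries. In RNA-seq the long form was at most 0.597 TPM, under the filter, and usage was not tested. The short form had a median of 9.89 TPM in testis, was listed at 0 in DSE testis replicate 2, and was listed at 0 in all 24 libraries of the other glands.

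ESYT2, a tether between the endoplasmic reticulum and the plasma membrane, had its 63-bp exon in 8.89% and 10% of reads in testis, 58.1% and 27.3% in epididymis, 75.9% and 74.3% in VG, 90.4% and 66.1% in PG and 65.9% and 85.7% in BG. The testis values rest on few reads, 4 with and 41 without the exon in BMI and 2 and 18 in DSE. In RNA-seq the median inclusion was 0% in testis, 36.0% in epididymis, 71.7% in VG, 62.9% in PG and 72.9% in BG. The form with the exon took a smaller part of the TPM of ESYT2 in testis by −41.8 points (SE 5.70, adjusted p = 2.95e-06 by limma), and the form without it a larger one by 42.3 (SE 5.01).

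SORT1, the sorting receptor sortilin, had its 99-bp exon in 6.45% and 3.61% of reads in testis, 31.7% and 23.0% in epididymis, 67.3% and 64.0% in VG, 63.6% and 60.4% in PG and 44.8% and 35.4% in BG. The glands kept this order in both breeds, but the step from VG to PG was small, and BMI PG is the library that stood apart from its label. In RNA-seq the median inclusion was 0.381% in testis, 22.1% in epididymis, 51.7% in VG, 48.3% in PG and 22.1% in BG. The usage of the including form differed in testis by −15.0 points (SE 2.92, adjusted p = 2.65e-04 by limma) and of the skipping form by 24.8 (SE 2.93).

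**Figure D4:**
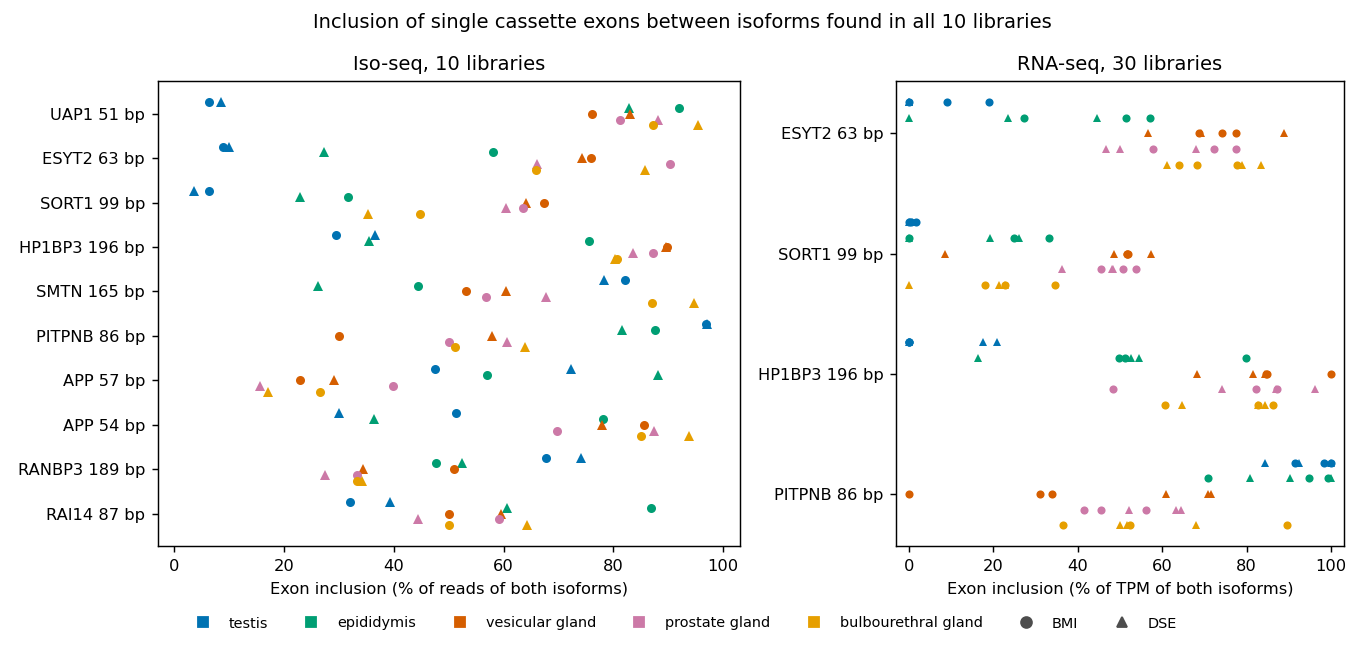
Exon inclusion in percent of the reads of both isoforms in 10 Iso-seq libraries for the 10 events with the largest differences between gland means (left), and in percent of the TPM of both isoforms in 30 RNA-seq libraries for 4 of them (right), with colour for the gland and shape for the breed. In UAP1, ESYT2 and SORT1 both testis points of Iso-seq lie below all other points.

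RANBP3, a cofactor of nuclear export, went the other way, with its 189-bp exon in 67.7% and 74.1% of reads in testis and 27.5% to 52.4% elsewhere. Its including form took more of the TPM in testis by 31.9 points (SE 3.06, adjusted p = 1.18e-08 by limma). HP1BP3, a heterochromatin protein, had its exon in 29.4% and 36.6% of reads in testis and 35.5% in DSE epididymis, against 75.5% to 89.7% in the other 7 libraries, and the including form differed by −49.6 points in testis (SE 4.92). RAI14, an actin-binding protein, had 32.0% and 39.3% in testis and 44.4% to 86.9% elsewhere, and its usage difference of −16.1 points (SE 6.82, adjusted p = 0.0704 by limma) was not called. The inclusion of the RAI14 exon in RNA-seq went the other way, with testis above the mean of the other glands by 6.34 points. PITPNB, a phosphatidylinositol transfer protein, had its exon of 86 bp in 96.8% and 97.1% in testis and 30.0% to 87.6% elsewhere. The exons of HP1BP3 and PITPNB are not wholly in coding sequence and are not shown.

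APP, the amyloid precursor protein, carried both of its shown exons as shared cassettes. The 57-bp exon was in 47.5% and 72.2% of reads in testis and 57.0% and 88.2% in epididymis, against 15.6% to 39.8% in VG, PG and BG. The 54-bp exon was in 51.4% and 30.0% in testis and 78.1% and 36.4% in epididymis, against 69.7% to 93.7% in the 3 accessory glands. The breeds lay far apart in testis and epididymis for both exons. RNA-seq inclusion was not computed for the APP exons.

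TPM was given for all isoforms of most of the 118 events. Of 27 events where testis differed from the mean of the other glands by over 10 points in Iso-seq, 24 had the same sign in RNA-seq and 19 also differed by over 10 points that way. Over the 93 events with both values, the differences correlated at r = 0.703 across events, which share their libraries and are not independent. UAP1 is in each of these counts and in r, at −78.3 points in Iso-seq and −83.3 in RNA-seq. Its long form was at most 0.597 TPM, under the filter, so its RNA-seq inclusion outside testis rests on very low TPM. The counts and r were not computed without UAP1.

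Between the breeds, 13 shared isoforms were higher in BMI (0.235% of those tested, against 0.329% of all transcripts) and 13 were higher in DSE (0.235%, against 0.297%). The mean read share in Iso-seq lay on the same side for 23 of the 26, and on the same side in 4 or 5 glands for 10. Of the 26, 6 have no gene symbol. Leaving out all libraries of replicate 1, 2 or 3 kept 19, 18 and 15 of these calls, and without replicate 1 there were 25 isoforms lower in BMI. The breeds did not overlap for 4 of the 26. The largest difference was that of PB.17407.28, an NNC isoform without a gene symbol, with at most 3.38 TPM in BMI and 32.5 to 587 in DSE (log2 fold change −7.12, SE 0.26, adjusted p = 6.11e-15 by limma). In Iso-seq its mean share was 0.0157% of reads in BMI and 0.0229% in DSE, so BMI was not without it. BMI had the higher share in 2 glands. PB.17407.21 (−1.74, SE 0.21) and PB.17407.5 (1.11, SE 0.19), of the same locus number, were also among the 26, in opposite directions. These 2 are named after their values were seen.

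CCN1 PB.14034.7, an NNC isoform of a matricellular protein, had 1.31 to 324 TPM in the 15 BMI libraries and 0 in all 15 DSE libraries. It was called higher in BMI (adjusted p = 5.66e-05 by limma). In Iso-seq it had 4 reads in BMI and 2 in DSE testis, 59 and 5 in epididymis, 47 and 15 in VG, 12 and 18 in PG and 66 and 8 in BG, so DSE was not without the isoform. SURF4 PB.2185.1, an NIC isoform of a cargo receptor of the endoplasmic reticulum, had 6.50, 12.5 and 23.6 TPM in BMI (lowest, median, highest) and 58.9, 96.9 and 174 in DSE. The breeds did not overlap (log2 fold change −2.91, SE 0.18, adjusted p = 7.32e-11 by limma). In Iso-seq the direction was opposite, with a mean share of 0.0542% of reads in BMI and 0.0368% in DSE, and BMI the higher in 4 of 5 glands, VG being the exception.

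**Figure D5:**
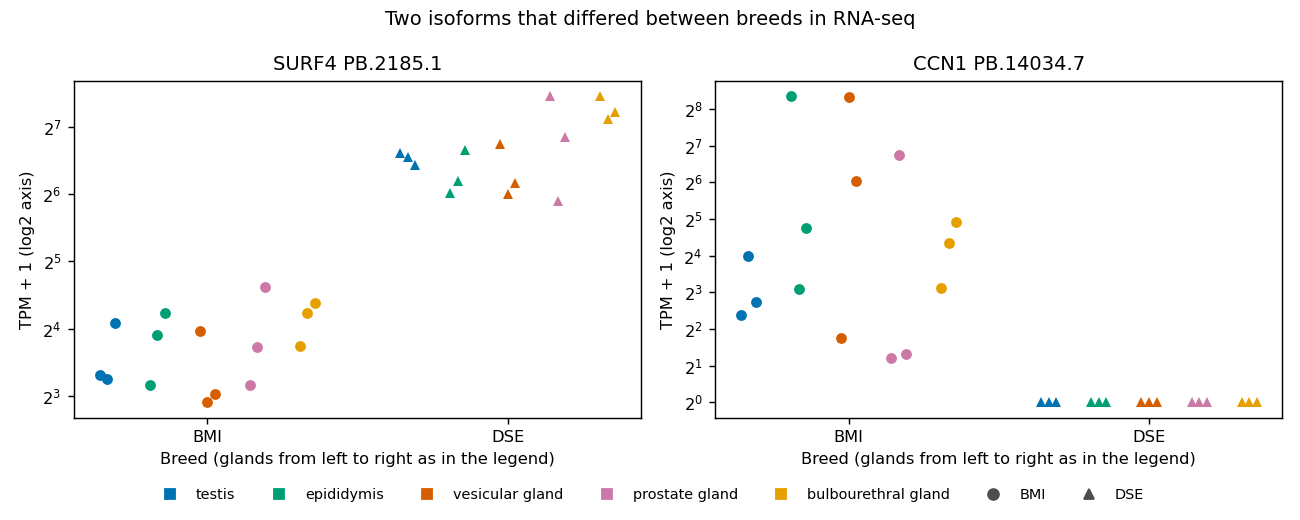
TPM + 1 on a log2 axis of SURF4 PB.2185.1 (left) and CCN1 PB.14034.7 (right) in the 15 RNA-seq libraries of each breed, 1 point per library, coloured by gland. SURF4 separates the breeds without overlap, and CCN1 is listed at 0 TPM in all 15 DSE libraries.

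Other isoforms higher in DSE were MANSC1 PB.14720.1 (−3.15, SE 0.45), MTARC2 PB.2262.2, a mitochondrial reductase (−2.32, SE 0.47), and GPAM PB.6784.3, the first enzyme of glycerolipid synthesis, which was listed at 0 TPM in all 15 BMI libraries and at up to 24.8 in DSE. In Iso-seq GPAM PB.6784.3 had a mean share of 0.0108% of reads in BMI and 0.0211% in DSE, with BMI the higher in 3 glands. BMI was therefore not without the isoform. Higher in BMI were ANKRD10 PB.3292.9 (2.38, SE 0.40), the Golgi protein GOLM1 PB.2489.4 (2.06, SE 0.37) and RSPRY1 PB.15340.1 (1.93, SE 0.30). For ANKRD10 the mean share in Iso-seq lay on the other side, at 0.00303% in BMI and 0.00318% in DSE. FAM174B and CA8, both named for BG, differed between the breeds in opposite directions, by −1.13 (SE 0.27) and 1.24 (SE 0.28). The calls of SURF4, CCN1, GPAM and ANKRD10 held without each replicate. Those of MANSC1, FAM174B and CA8 were lost without replicate 2 or 3, that of FAM174B also without BMI PG replicate 2 and that of CA8 also with a pseudocount of 0.1, that of MTARC2 without replicate 1 or 3, that of RSPRY1 without replicate 1 or 2 and that of GOLM1 without replicate 3.

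The difference of a gland from the other 4 was itself compared between the breeds. It differed by an adjusted p below 0.05 by limma for 42 shared isoforms in testis. Of those tested 13 were higher in BMI (0.235%, against 4.19% of all transcripts) and 29 lower (0.524%, against 0.841%). In PG 1 was higher in BMI (0.0181%, against 0.0278%) and 3 were lower (0.0542%, against 0.186%). The call of RPL10, the higher one, held without BMI PG replicate 2 and those of the 3 lower ones, ZNF250, GPAM and PB.13778.97, were lost, at adjusted p of 0.0829, 0.0925 and 0.0619 by limma, while 6 isoforms were called in all. RPL10, ZNF250 and PB.13778.97 are named after their values were seen. Epididymis, VG and BG had 1 each, all higher in BMI (0.0181% in each, against 0.113%, 0.0742% and 0.0835%). Of all transcripts 0.158%, 0.114% and 0.133% were lower in BMI there. The methyltransferase complex subunit ASH2L, isoform PB.7207.16, led in testis with a difference of 1.97 (SE 0.14, adjusted p = 2.56e-10 by limma). The count in testis fell to 10 without replicate 2 and 17 without replicate 3.

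Read numbers and TPM ranked the shared isoforms differently. Across the 6007 isoforms with both, Spearman's rho was 0.356, and it was 0.246 for the 1897 FSM. Of 277 isoforms with at least 1000 reads, 34 had a mean TPM under 1, and 14 stayed under 1 TPM in all 30 libraries. In 590 of 834 genes (70.7%) with 2 or more such isoforms, the one with most reads also had the highest mean TPM. Salmon divides short reads among overlapping isoforms, and ISM were not among its transcripts, so single TPM values of isoforms that share most of their exons are uncertain.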

How the data were processed

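The authors clustered Iso-seq reads of all libraries into isoforms, aligned them to Sscrofa11.1 (susScr11), collapsed them and classified them with SQANTI3. The deposited Iso-seq table holds raw counts of full-length reads, 1 column per library, and the percent of A bases after each 3′ end as SQANTI3 gave it. TPM came from the authors' salmon run (version 1.9.0 in the submitters' processing notes) on reference and new isoforms merged into one annotation, and keeps no depth. The labels name rRNA depletion for RNA-seq and the methods name poly-T beads.

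A share is the reads of an isoform over all reads of its library. TPM was used as log2(TPM + 1), where a fold change understates low transcripts. The limma fit (version 3.58.1, trend, R 4.3.3) took the 64661 transcripts that reached 1 TPM in 3 or more libraries, over 10 groups with 20 residual degrees of freedom. Usage was the fraction of the TPM of a gene. Calls needed a Benjamini-Hochberg adjusted p below 0.05 over all tested and a log2 fold change of 1, or a usage difference of 0.1. Differences of gland effects between breeds needed the adjusted p alone.

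Per gland, the 5 isoforms with the largest ratio of shares were named among those high in both libraries, with the 8 of largest difference in points, the 6 steadiest, the 3 genes with most shared isoforms, the leading isoform of each list and the 6 largest usage differences. Members and lists were chosen with earlier results of these data known. On simulated data with planted effects in 200 transcripts, 79% were recovered at 1.5 log2 and 99% at 3 log2 for 1 gland against the other 4 over 64661 transcripts, and 66% at a usage difference of 0.2 and 94% at 0.4 over 24640, with 2.94% and 6.47% of usage calls false. The simulated data had all real gland and breed differences removed. Only increases were planted, in PG for TPM and in testis for usage, so the rates hold for those settings. Wilson intervals and difference intervals are 95%. Python 3.11.15 was used otherwise. Small RNA, the start set behind the CAGE column and raw reads were not analysed here, and 2 isoforms that met the naming rule are not reported here.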

Additional observations from a re-analysis of the deposited data

Results flagged for a closer look

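In 62 groups of 6 RNA-seq libraries of 1 gland, 11 held a library far from the other 5 by Dixon's test, and chance gives about 1 in 20. In epididymis, CLU was at 1177 TPM in DSE replicate 1, RCN1 at 1248 in BMI replicate 2, TMEM254 at 113 in BMI replicate 3 and RPN2 PB.8953.71 at 0.135 in DSE replicate 1. In PG, MTHFD2 was at 9.33 TPM in DSE replicate 2, and GPD1L at 8.90 and HDLBP PB.8071.44 at 1.42 in BMI replicate 3. In testis replicate 2 of DSE, IPO4 PB.17999.40 was at 30.7 TPM and UAP1 PB.13451.1 at 0. SSRP1 was at 56.1 TPM in VG of BMI replicate 2, and UAP1 PB.13451.2 at 0.597 in BG of BMI replicate 2. No cause was tested.

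SORD PB.939.40, an isoform of sorbitol dehydrogenase, was at 12.8 to 19.1 TPM in VG of BMI and at 0 in all 3 VG libraries of DSE. Its difference of VG from the other 4 glands was larger in BMI by 3.39 on the log2 scale (SE 0.61, adjusted p = 0.0108 by limma, interaction of breed and gland). In Iso-seq it had 230 reads in BMI VG and 107 in DSE VG. Without BMI PG replicate 2 the adjusted p was 8.10e-04.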

How the results depend on the processing

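With at least 5 reads in each library 2896 isoforms were shared, and without 1 library each 7623 to 8118. With that minimum the differences in points from the other isoforms were 27.8 (known), −33.7 (NNC), −13.7 (predicted decay), 11.1 (canonical sites) and 19.3 (5′ end in a reference start). Within classes of total reads they were 6.44, −14.4, −3.28, 1.97 and 10.7, with 0.795 for coding, and the weighted means over classes reversed for template switching (0.152) and the polyA motif (−1.03), although template switching kept its sign in 2 of 3 classes and the polyA motif in 1. With shares of member reads 1064 isoforms were high in testis in Iso-seq. Without the Iso-seq library labelled BMI prostate gland 729, 323, 427, 1089 and 385 were high in testis, epididymis, VG, PG and BG.

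In RNA-seq, size factors gave 230 higher and 317 lower in epididymis, 282 and 267 in VG and 270 and 276 in BG. A pseudocount of 0.1 gave 170 lower in epididymis and, between breeds, 20 higher and 30 lower in BMI. Leaving out a replicate (also BMI PG replicate 2 alone) gave ranges, higher then lower, of 1022 to 1126 and 628 to 746 in testis, 452 to 701 and 84 to 148 in epididymis, 48 to 83 and 988 to 1469 in VG, 95 to 217 and 93 to 307 in PG, 342 to 535 and 97 to 182 in BG, and 9 to 15 and 9 to 25 in BMI. Breed differences of gland effects were 10 to 48 in testis, 2 to 7 in epididymis, 0 to 2 in VG, 0 to 6 in PG and 0 to 1 in BG. For these a pseudocount of 0.1 gave 2, 2 and 2 in epididymis, VG and BG, no filter gave 4, 4, 2 and 2 in epididymis, VG, PG and BG, and size factors gave 0 and 3 in epididymis and VG. The adjusted p under an alternative that ended a named call is given for some of these calls only.

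Usage with at least 5 TPM for the gene was 343 higher and 439 lower in testis, 85 and 94 in epididymis, and 92, 109 and 108 higher in VG, PG and BG. Without 1 replicate it ranged from 371 to 561 and 586 to 821 in testis, 23 to 133 and 37 to 134 in epididymis, 37 to 184 and 38 to 173 in VG, 30 to 171 and 8 to 73 in PG, and 57 to 175 and 33 to 81 in BG.

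Reversed single values were SAT1 (−0.0028), SSRP1 (0.35), TMEM254 (−0.0349) and PAIP1 PB.8263.5 (−0.0651) with size factors, GPD1L (−0.63 to 0.66 without 1 replicate, below 0 without replicate 3) and HDLBP PB.8071.14 (−0.0047 to 0.0356, below 0 without replicate 1). The cause was not tested.

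The replicate numbers did not meet the bar for pairing (every correlation over 0.1), which does not exclude a weak pairing: libraries with the same number and breed correlated in their deviations at −0.326 to 0.441 (median 0.0449 over 60 pairs, 18 above 0.1), and those with other numbers at a median of −0.0131 (23 of 120 above 0.1). With the replicate block, breed differences of gland effects were 2 in PG and 2 in BG. With it no other count moved by over 1.5 times.

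TPM gives no counts, so shallow libraries and low isoforms could not be weighed by depth, and 1 Iso-seq library per group leaves its gland differences without replicates.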
